A study of Sus scrofa with 12 samples.

Results

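Boar sperm m6A peaks were compared in the 1042 regions that carried a peak in every one of the 6 immunoprecipitated (IP) samples, 3 from fresh sperm (Fs) and 3 from frozen-thawed sperm (Fts). The peak intervals of the 6 samples were merged wherever they shared at least 1 bp, with strand ignored, and a merged region was kept when it overlapped a peak of each sample. Of 29695 merged regions, 1042 (3.51%) met this rule. They are called shared regions here. They were chosen by the presence of a called peak in all 6 samples, and the height of the peak played no other part. Semen of 3 Duroc boars was split in equal parts for the treatments. The Fs part was put into liquid nitrogen without any extender step for RNA extraction and served as the control. The Fts part was cooled slowly, spun down, taken up in a lactose and egg yolk extender, given glycerol, frozen in straws and thawed. All samples were ejaculated spermatozoa of this breed, no label gave an age or a genetic modification, and the comparison asked how cryopreservation changes m6A on sperm mRNA.

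N6-methyladenosine (m6A) is a methyl mark on adenosine that METTL3 and METTL14 place on mRNA, mostly within the sequence RRACH (A or G, A or G, A, C, then A, C or T). It is removed by FTO and ALKBH5 and bound by reader proteins of the YTH family, and it acts on splicing, export, translation and decay of transcripts. Mature sperm are almost silent in transcription and translation, so that most of their RNA was made before the cells left the testis. In MeRIP-seq, RNA fragments are pulled down with an m6A antibody, and a stretch with more IP reads than the input library predicts is called a peak.

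Below are a pair of the highest-scoring regions on coding exons (EIF4A2 and ZC3H18), the highest-scoring region that held no RRACH (68 bp from GDF11), and 4 coding regions among the 20 with the largest score gain or loss in Fts (HNRNPUL2, STK36, SRCIN1 and CASZ1). Coordinates are those of Sscrofa11.1, bases are the RefSeq genome read 5′ to 3′ on the strand of the peaks, and capitals mark every RRACH.
EIF4A2 exon 4, chr13:124584495-124584634 (+): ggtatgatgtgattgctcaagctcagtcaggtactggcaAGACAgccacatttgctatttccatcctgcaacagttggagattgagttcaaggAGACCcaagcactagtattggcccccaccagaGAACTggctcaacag
ZC3H18 exon 9, chr6:1051422-1051690 (-): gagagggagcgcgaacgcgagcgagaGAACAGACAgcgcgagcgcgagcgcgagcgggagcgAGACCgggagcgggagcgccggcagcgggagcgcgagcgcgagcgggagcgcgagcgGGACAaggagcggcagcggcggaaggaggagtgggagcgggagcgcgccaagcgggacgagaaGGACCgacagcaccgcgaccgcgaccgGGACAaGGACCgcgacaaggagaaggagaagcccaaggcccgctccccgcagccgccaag
Region 68 bp from GDF11, chr5:21191190-21191253 (+): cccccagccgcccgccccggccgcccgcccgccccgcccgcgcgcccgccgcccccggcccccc
HNRNPUL2 exon 2, chr2:9037454-9037589 (+): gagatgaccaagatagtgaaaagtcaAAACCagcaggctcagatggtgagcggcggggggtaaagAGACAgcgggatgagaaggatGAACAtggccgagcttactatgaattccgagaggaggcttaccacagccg
STK36 exon 5, chr15:120723507-120723637 (+): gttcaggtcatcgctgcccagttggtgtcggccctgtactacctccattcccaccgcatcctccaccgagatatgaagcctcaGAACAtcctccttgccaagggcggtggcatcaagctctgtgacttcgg
SRCIN1 exon 7, chr12:23539920-23540118 (+): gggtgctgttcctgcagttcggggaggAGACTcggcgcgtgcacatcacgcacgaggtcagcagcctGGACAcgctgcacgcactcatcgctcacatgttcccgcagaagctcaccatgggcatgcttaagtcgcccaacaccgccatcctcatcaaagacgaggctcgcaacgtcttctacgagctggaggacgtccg
CASZ1 exon 17, chr6:70887190-70887358 (-): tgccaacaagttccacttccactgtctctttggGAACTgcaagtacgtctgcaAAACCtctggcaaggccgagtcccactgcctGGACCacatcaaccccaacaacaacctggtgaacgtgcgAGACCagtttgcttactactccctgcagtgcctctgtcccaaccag

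RRACH, counted on the strand of the peaks with overlapping matches included, was present in 928 of the 1042 shared regions (89.1%) and in 84.6% of all merged regions. Its form GGACT, which is contained in RRACH, was present in 355 (34.1%) against 22.7% of all. The shared regions were longer, with a median of 274.5 bp against 166 bp, so these shares are given without a test. The ZC3H18 region is 74.0% G and C and the one beside GDF11 is 98.4%.

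MicroRNA genes lay in 5 of the shared regions, and 4 of these were among the 10 regions with the highest mean score. RefSeq lists 312 microRNA genes in this assembly, 16 of the 29695 merged regions overlapped any of them, and 5 of the 16 (31.3%) had a peak in all 6 samples, 1 in 5 samples and 10 in 1 to 3 samples. These loci were singled out after their values were seen, and no test was made. Each of the 7 hairpins in the 5 regions lay wholly inside its region. The mature sequences, read from the genome at the RefSeq positions and with the seed (bases 2 to 8) in capitals, were as follows, with ssc-miR-24-1-5p left out.
ssc-miR-21, chr12:36065284-36065305 (+): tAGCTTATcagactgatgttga
ssc-miR-23a, chr2:65308158-65308178 (+): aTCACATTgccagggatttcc
ssc-miR-27a, chr2:65308347-65308367 (+): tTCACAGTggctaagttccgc
ssc-miR-24-3p, chr2:65308502-65308523 (+): tGGCTCAGttcagcaggaacag
ssc-miR-199a-5p, chr9:114533828-114533850 (-): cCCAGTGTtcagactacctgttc
ssc-miR-199a-3p, chr9:114533790-114533811 (-): aCAGTAGTctgcacattggtta
ssc-miR-210, chr2:335278-335299 (-): cTGTGCGTgtgacagcggctga
ssc-miR-127, chr7:121709688-121709709 (+): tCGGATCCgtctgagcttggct

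A shared region of 978 bp held MIR21, whose hairpin began 367 bases from the region's start, and its score was 3100, the usual ceiling of the scores, in all 6 samples. miR-23a, miR-27a and miR-24 are made from a single cluster, and the 1675 bp region around it scored 1152, 2848 and 1790.5 in Fs and 3100 in each Fts sample. The MIR199A-1 region scored 1267, 3100 and 1587 in Fs and 3100, 3100 and 924 in Fts, with groups that overlapped. miR-210 is known as a microRNA of the response to low oxygen. Its region scored 689, 512 and 446 in Fs and 1424, 2449.9 and 1922 in Fts, so that every Fts sample lay above every Fs sample. The difference did not pass the main test over all regions (limma, log2 difference 1.81 ± 0.73 SE, adjusted p = 0.16, and 0.020 to 0.75 over the alternative settings). MIR127 lies opposite RTL1, an imprinted gene, and the region there scored 268, 343 and 1332 in Fs and 2495, 898 and 1988 in Fts. Groups overlapped at this locus. The strand given for the peaks was that of the microRNA for MIR21 and MIR199A-1 and the opposite strand for the other 3 regions.

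The score was read as 10 times -log10 p of the IP reads of a peak against the input of the same sample, as MACS gives it. No header names the column, and this reading rests on the range of the values and on the peak caller. On this reading the score measures how surely the peak stands above its input, it grows with read depth and RNA abundance, and it is not a level of methylation. In bulk sperm, fewer cells carrying a transcript and less of it per cell cannot be told apart. The 6 lists held from 8015 to 11982 peaks, of which 8.82% to 13.2% fell in shared regions. Median scores of the shared regions ran from 47.1 to 57.5 in the Fs samples and from 38.1 to 45.5 in the Fts samples, against 9.61 to 14.6 for the other regions of the same samples. These heights follow in part from the rule and were not tested. Many shared regions were weak somewhere, with 571 of 1042 falling under 13.01 in at least 1 sample, the score that a p-value of 0.05 would have on this reading. Only 369 kept a score of at least 20 in all 6 samples and 169 a score of at least 50. No library stood apart: Spearman's rho of the scores over the 1042 regions was 0.64 to 0.69 among Fs samples, 0.67 to 0.72 among Fts samples and 0.40 to 0.47 between a sample of each group.

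**Figure D1:**
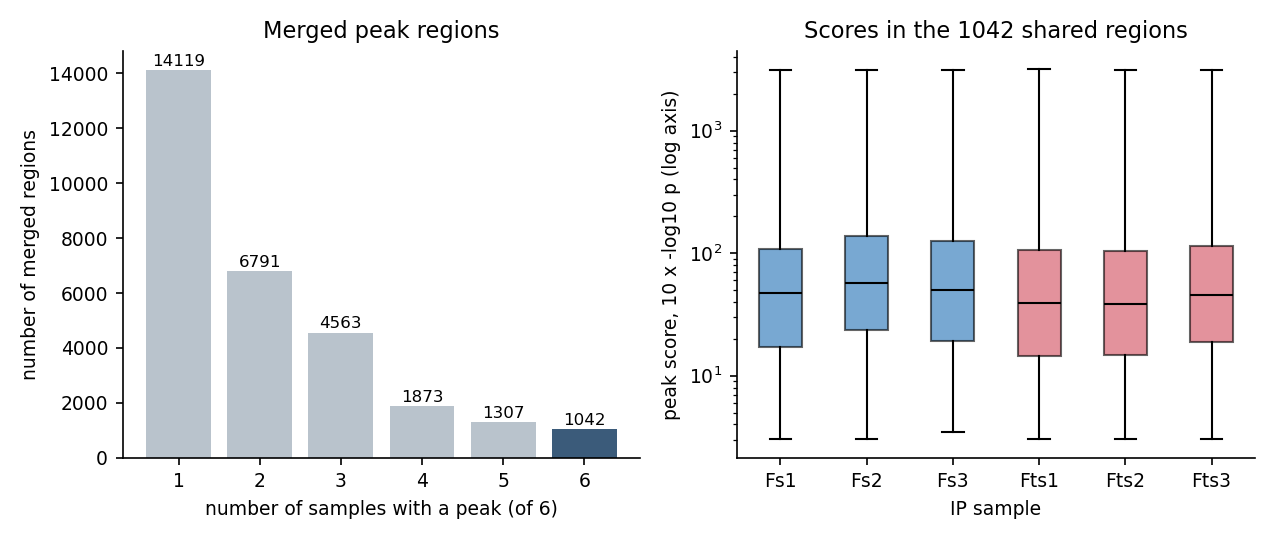
Left, number of merged regions (y axis) by the number of samples with a peak in them (x axis), falling from 14119 in 1 sample to 1042 in all 6. Right, peak scores (log axis) of the shared regions in each IP sample as boxes from the lower to the upper quartile with the median, and whiskers to the lowest and highest score; medians lie between 38.1 and 57.5.

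Besides the microRNA loci, the 10 regions with the highest mean score included coding exons of 5 genes. EIF4A2, a DEAD-box RNA helicase that works in translation initiation, had the ceiling score of 3100 in all 6 samples on its exon 4, a sequence with 1 further copy in the genome. The 1691 bp region on exon 1 of SBSN, which encodes the epidermal protein suprabasin, scored 1363, 1626 and 2337 in Fs and 1223, 1464 and 905 in Fts. The groups overlapped for SBSN, and EIF4A2 cannot show a difference at the ceiling. The stretch beside GDF11, a gene of a TGF-beta family ligand, is outside RefSeq genes. It scored 1133, 2105 and 1341 in Fs and 1879, 1651 and 1591 in Fts. ZC3H18, a partner of the cap-binding complex and the nuclear exosome, scored 47.2, 1210.0 and 1716 in Fs and 3100 in each Fts sample. On ARL9, a small GTPase of the ARF family, the scores were 1088, 1637 and 1018 in Fs and 66.0, 2960.3 and 3100 in Fts. Single samples stood low here, replicate 1 of Fs for ZC3H18 and replicate 1 of Fts for ARL9. GNG8, a G protein gamma subunit, scored 376, 230.3 and 1189 in Fs and 2226, 2047 and 2052 in Fts, without overlap. None of the 10 highest regions passed the main test, with adjusted p from 0.12 to 1 (limma). With the trend of the spread in the fit, the MIR210 region, ZC3H18 and GNG8 passed (limma adjusted p = 0.020, 0.032 and 0.015). Their highest adjusted p over the alternative settings was 0.75, 0.49 and 0.57 (limma).

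Over all shared regions, the median difference between the groups was negative in each replicate number. The median log2 difference, Fts minus Fs, was -0.16, -0.45 and -0.22 in replicates 1, 2 and 3, with a mean of -0.28 ± 0.16 (SD, n = 3 pairs). All 3 went the same way, and the exact two-sided sign-flip test gave p = 0.25, the smallest that 3 pairs allow. By the library totals given with the study, mapped IP reads were fewer in all Fts samples than in any Fs sample. The input libraries differed too. A smaller share of input reads mapped in every Fts sample than in any Fs sample. Mapped input reads were fewer in replicates 1 and 2 of Fts than in any Fs sample, but not in replicate 3. The part of IP and input depth in this difference was not tested. Region by region, 56 of the 1042 shared regions differed at an adjusted p under 0.05 by limma on log2 scores with the replicate number as a block. That is 5.37%, where 3.55% of the 2957 regions fitted, shared ones included, were called (105). The other 1915 regions fitted held 49 of the calls. They had peaks in only 4 or 5 samples, so the shares rest on unlike numbers of scores. Of the 56, 26 were higher in Fts (2.50% of shared regions, 2.06% of all fitted) and 30 were lower (2.88% and 1.49%). In each of the 56 the scores of the groups did not overlap. That held for 360 of the 1042 shared regions (132 higher and 228 lower in Fts). The 132 and 228 are on scores as given, and no such count was made over all regions fitted. Scores without overlap in 3 against 3 samples give no exact two-sided permutation p under 0.1, so the count is a description. By the mean, 446 of the 1042 were higher in Fts on these scores and 530 after centring on sample medians. The labels number the samples but do not say that equal numbers share a boar, and the p-values measure only the spread between these samples. Without the block, 74 shared regions were called, 50 of the 56 among them. The count fell to 20 without replicate 2 and 19 without replicate 3 of both groups, and was 37 without replicate 1. Centring the scores of each sample on its median, which moved log2 differences by 0.34, gave 29 higher and 12 lower, so that the balance of the directions depended on the scaling. Ranks in place of scores, fitted on the shared regions alone, called 0 regions (limma, 266 at an unadjusted p under 0.05). Scores fitted on the shared regions alone called 5.

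**Figure D2:**
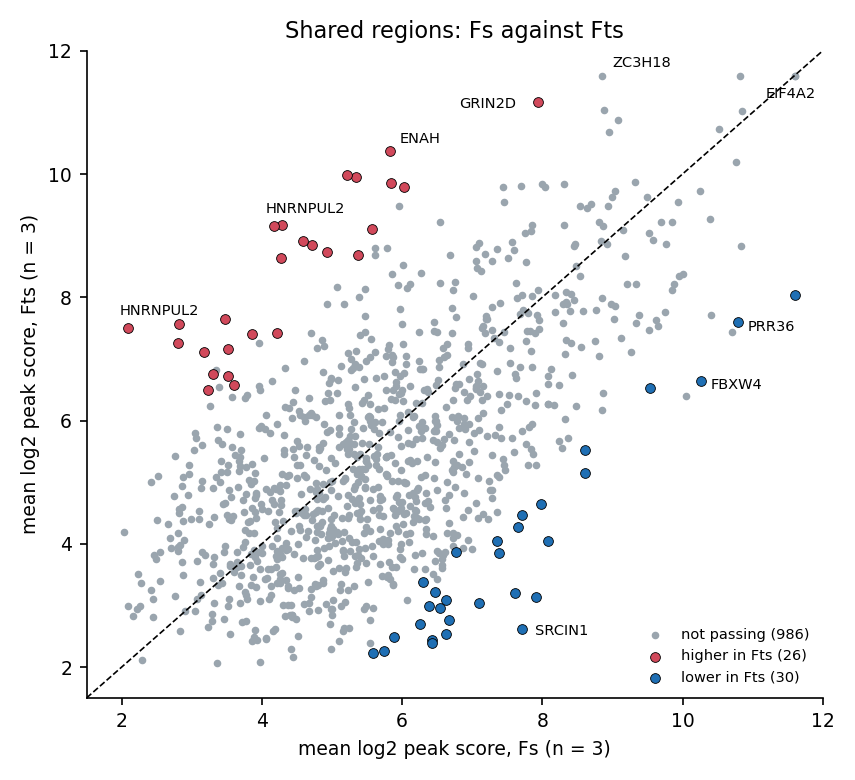
Mean log2 peak score in Fs (x axis) against Fts (y axis), 3 samples each, 1 point for each of the 1042 shared regions. Red points mark the 26 regions higher and blue points the 30 lower in Fts at an adjusted p under 0.05, and the dashed line marks equal scores.

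Among the 26 regions higher in Fts, 25 lay on mRNA exons, and log2 differences ran from 2.97 to 5.41. HNRNPUL2, a relative of the RNA-binding protein hnRNP U, gave the largest difference and had a pair of shared regions, both called. On its exon 2 the score was 3.74, 3.21 and 6.46 in Fs and 196, 178 and 172 in Fts (log2 difference 5.41 ± 0.73 SE, limma adjusted p = 0.016). On exon 1, around the start codon, it was 64.5, 23.8 and 3.77 in Fs and 353, 979.6 and 540.0 in Fts (log2 difference 4.99 ± 0.91). Over both exons, every Fs score was at most 64.5 and every Fts score at least 172. CYB5A, cytochrome b5, went from 8.76, 26.8 and 31.4 in Fs to 343, 882 and 639 in Fts in a 2373 bp region centred on its 3'UTR. GOLGA4, a golgin of the trans-Golgi network, went from 55.2, 36.4 and 25.3 to 755, 1369 and 1011 on exon 18, a coding exon of 3001 bases. PAPOLG, a nuclear poly(A) polymerase, went from 11.5, 5.10 and 6.05 to 245, 173 and 161 around its start codon. In these 3 genes the lowest Fts score stood far above the highest Fs score. ENAH, an actin regulator at the leading edge of cells, had 25.5, 53.0 and 133 in Fs and 774, 2041 and 1458 in Fts on exon 7 of 17. STK36, a kinase needed for the central pair of motile cilia, had 7.32, 3.23 and 14.2 in Fs and 53.7, 240.4 and 274 in Fts on exon 5 of 28. The Fs samples of these genes differed among themselves, with replicate 3 the highest in both. SRRM2, a scaffold of nuclear speckles and the spliceosome, had 13.8, 6.18 and 85.5 in Fs and 461, 341 and 399 in Fts. COL5A3, a collagen V chain, had 19.1, 165 and 4.41 in Fs and 436, 657 and 395 in Fts, and without the block it no longer passed (limma adjusted p = 0.058, and 0.0016 to 0.14 over all alternatives). In Fs, replicate 3 was high for SRRM2 and replicate 2 for COL5A3. Leaving out a replicate number of both groups raised the limma adjusted p to 0.05 or more for SRRM2 and COL5A3 without replicate 1, for HNRNPUL2 exon 1, STK36 and SRRM2 without replicate 2 and for HNRNPUL2 exon 1 and COL5A3 without replicate 3, where it ran from 0.053 to 0.086.

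A further 16 regions higher in Fts fell outside the rule for named regions, and those given here with values were chosen after their values were seen. THRAP3, a splicing and mRNA decay factor, scored 41.4, 30.9 and 54.6 in Fs and 309.8, 594 and 377 in Fts. CASC3, a core part of the exon junction complex, scored 4.97, 13.6 and 10.8 in Fs and 179, 90.2 and 164 in Fts. PHF3, which binds the tail of RNA polymerase II, scored 15.0, 18.7 and 4.92 in Fs and 139, 249 and 229.6 in Fts. All 3 had no Fs sample near any Fts sample. GRIN2D, an NMDA receptor subunit, had the highest scores of the 16, with 308, 239.9 and 199 in Fs and 2077, 2374 and 2459 in Fts. Further calls of this direction were ARF6, ARHGEF12, MKX, PPP1R37, PTAFR, SPTBN4, SRCAP, TEX35, UGT3A2, UNC13A, VPS50 and a region outside RefSeq genes at chr13:95932990-95933075.

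Lower scores in Fts were found in 30 shared regions, 25 of them on mRNA exons, with log2 differences from -2.90 to -5.09. SRCIN1, an inhibitor of the Src kinase, fell most, from 195, 209 and 229 in Fs to 5.67, 3.70 and 11.1 in Fts on exon 7 (log2 difference -5.09 ± 0.74 SE, limma adjusted p = 0.016). A 272 bp region at chr6:54706853-54707124, opposite an exon of BCL2L12, fell from 374, 242 and 152 to 6.12, 7.73 and 14.5. ZFP37, a zinc finger protein, fell from 168, 272 and 161 to 20.5, 6.77 and 5.54. In these 3 regions every Fs score was at least 152 and every Fts score at most 20.5. ABCD2, a peroxisomal fatty acid transporter, fell from 115, 80.6 and 105 to 3.42, 6.15 and 9.25. MMP19, a matrix metalloproteinase, fell from 128, 150.0 and 135 to 4.15, 6.55 and 20.5. C8H4orf17, an open reading frame of unknown role, fell from 80.6, 87.7 and 90.8 to 5.13, 4.71 and 5.92. The Fs samples of these 3 genes were close together, and every Fts score was at most 20.5. DNAJB11, a chaperone partner in the endoplasmic reticulum, fell from 343, 202 and 288 to 22.6, 3.35 and 59.7 on a 5'UTR exon. CASZ1, a zinc finger transcription factor, fell from 86.6, 116 and 63.4 to 9.57, 5.38 and 3.09. KCTD10, an adaptor of CUL3 ubiquitin ligases, fell from 59.8, 116 and 152 to 14.4, 4.74 and 4.60. All 3 had at least 1 Fts sample under 5 in score, as had SRCIN1, ABCD2, MMP19 and C8H4orf17. FBXW4, an F-box protein of ubiquitin ligases, fell from 1138, 1204 and 1344 to 27.8, 203 and 177, and after centring it no longer passed (limma adjusted p = 0.059, and 0.0048 to 0.23 over all alternatives). Leaving out a replicate number of both groups raised the limma adjusted p to 0.05 or more for MMP19 and FBXW4 without replicate 1, for ZFP37, MMP19, C8H4orf17, DNAJB11, CASZ1, KCTD10 and FBXW4 without replicate 2 and for ZFP37, CASZ1, KCTD10 and FBXW4 without replicate 3, where it ran from 0.051 to 0.11.

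Of the other 20 regions lower in Fts, 3 are given with values and were chosen after these were seen. They included PRR36, a proline-rich protein, with 1859.9, 1912 and 1542 in Fs and 283, 169 and 151 in Fts. A 721 bp region outside RefSeq genes, with AMTN the nearest, went from 3100 in each Fs sample to 94.8, 439.8 and 435 in Fts. FANCM, a DNA translocase of the Fanconi anaemia pathway, went from 212, 209.7 and 205 in Fs to 20.2, 16.9 and 31.4 in Fts. All Fs scores of these 3 regions lay above all Fts scores by a wide margin. The others were ARHGEF1, ARRDC3, C1H6orf183, CRYBG3, DLGAP4, FDXR, HHIP, MGAM, MLPH, MTCH1, MUC6, RASAL1, TIGD3, USP8 and 3 regions off mRNA exons of their strand, at chr1:226428984-226430093, chr16:47685679-47686841 and chr13:22707386-22707666. The MUC6 region belongs to a repeat with 24 matching places in the genome, its own included, so its reads cannot be told apart from theirs.

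**Figure D3:**
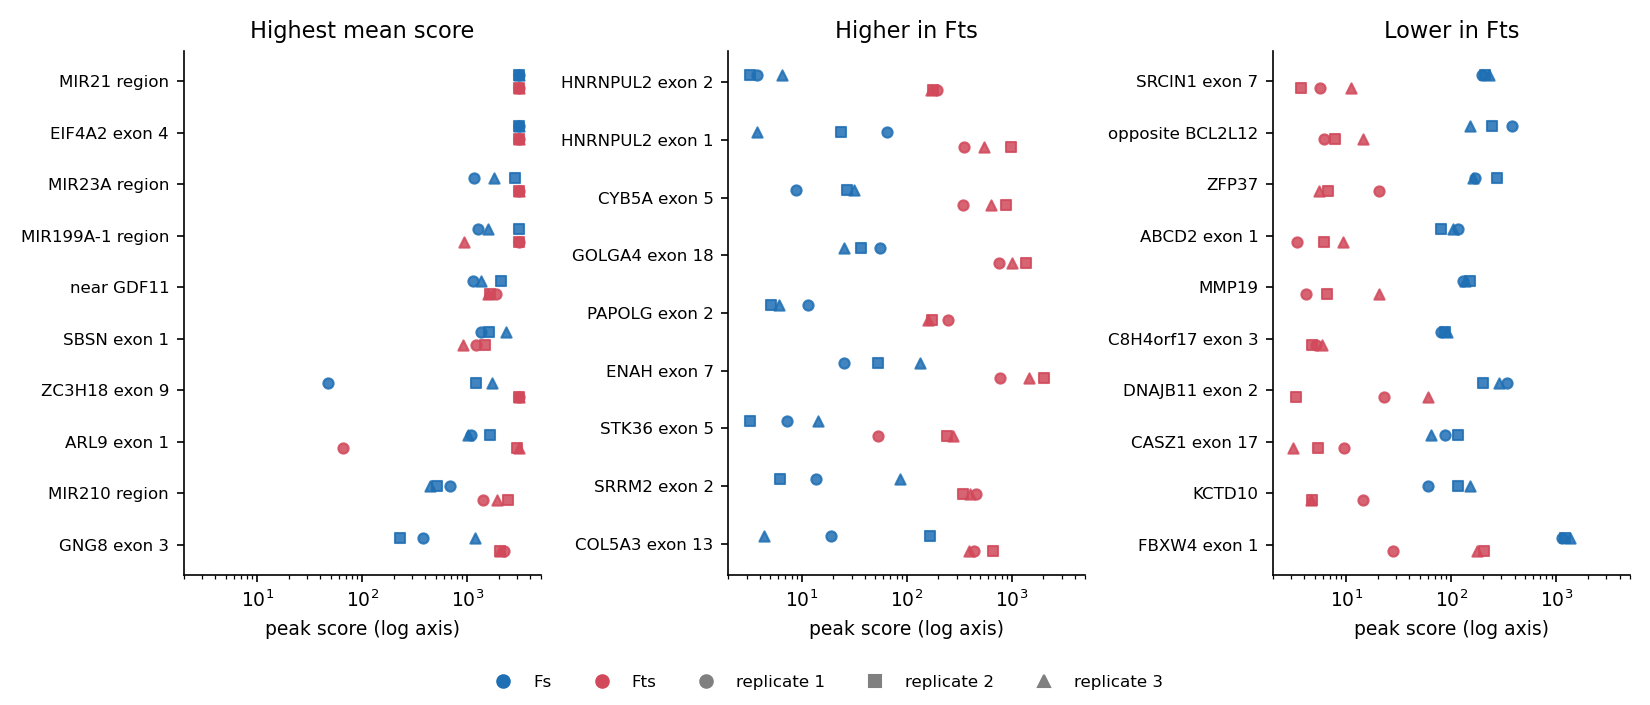
Peak scores (log axis) of each sample, blue for Fs and red for Fts, with marker shape for the replicate number, in the 10 shared regions of highest mean score, 9 of those with the largest gain and the 10 with the largest loss in Fts. Regions off mRNA exons are named by the microRNA gene they hold, the nearest gene or the gene opposite. In the middle panel every red marker lies right of the blue ones and in the right panel left of them.

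Most genes had a single shared region. The 864 shared regions on mRNA exons lay in 817 genes, 7.02% of the 11642 genes with any region, and 772 of these had 1, 43 had 2 and 2 had 3. SPTBN4, a spectrin beta chain of axons, had 3. Its exon 6 scored 58.1, 111 and 16.5 in Fs and 710.1, 349.5 and 687 in Fts and was called higher (log2 difference 3.55 ± 0.84 SE, limma adjusted p = 0.041, and 0.0065 to 0.13 over all alternatives, with 0.081 without replicate 1 and 0.12 without replicate 3). Exon 12 scored 99.5, 373 and 83.8 in Fs and 229, 107 and 369 in Fts. Exon 18 scored 54.1, 90.4 and 10.1 in Fs and 12.3, 3.14 and 46.4 in Fts, and both exons had overlapping groups. MYH14, a heavy chain of non-muscle myosin, also had 3, none of which passed, although exon 34 had no overlap. Its scores were 5.21 to 17.1 in Fs and 10.1 to 90.4 in Fts on exon 33, 31.9 to 48.6 in Fs and 51.9 to 184 in Fts on exon 34 and 33.1 to 100.1 in Fs and 9.66 to 208 in Fts on exon 38. UNC13A, a priming factor of vesicle fusion, had a pair of which exon 21 alone was called. Exon 21 scored 10.9, 62.8 and 279 in Fs and 942, 834 and 1008 in Fts (log2 difference 4.01 ± 0.90). Exon 30 scored 29.8, 48.8 and 40.4 in Fs and 20.7, 6.44 and 32.7 in Fts (log2 difference -1.25 ± 0.79, limma adjusted p = 0.37), with groups that overlapped. The difference between exons of a gene was not tested. Of the 45 genes with more than 1 shared region, 10 had all of them higher in Fts by the mean, 15 all lower and 20 some in each direction, and only HNRNPUL2 had every region called.

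Across 10 lists of genes there were 47 shared regions, of which 3 were called higher and 1 lower, where 3.55% of all regions fitted were called. Of the genes with any region, those with a shared region made up 17.4% of the m6A list, 14.3% of chromatin regulators, 12.9% of the ubiquitin list, 12.3% of the flagellum list, 11.9% of the signalling list and 10% of the acrosome list, against 7.02% of all genes. The shares were lower for RNA-binding genes (4.23%), chaperones (2.86%) and glycolysis with the citrate cycle (2.5%). These shares were not tested. No gene of the list on the sperm nucleus and spermatid chromatin had a shared region, although 26 of its 35 annotated genes had a region in some sample.

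The flagellum list had shared regions in 8 of the 65 genes with any region, CATSPERB, CFAP54, DNAH1, DNAH9, HYDIN, ROPN1, SPAG16 and SPEF1, and none passed. CATSPERB, a subunit of the sperm calcium channel CatSper, scored 57.5, 187 and 30.7 in Fs and 350.2, 256 and 291 in Fts (log2 difference 2.10 ± 0.79 SE, limma adjusted p = 0.14). Its groups did not overlap. DNAH1, a heavy chain of the inner dynein arms, scored 33.4 to 303 in Fs and 52.5 to 164 in Fts. SPAG16, of the central apparatus, scored 33.3 to 128 in Fs and 36.4 to 85.2 in Fts. ROPN1, a protein of the fibrous sheath, scored 24.8 to 53.5 in Fs and 16.9 to 56.9 in Fts. All 3 overlapped between the groups. Of the acrosome list, UNC13B and SPACA1 had a shared region among 20 genes. UNC13B scored 12.6 to 34.7 in Fs and 32.5 to 50.6 in Fts. SPACA1, a membrane protein of the acrosome, scored 9.16 to 21.1 in Fs and 3.86 to 21.7 in Fts. The groups of both overlapped.

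The m6A list had 4 genes among 23 with any region, and none passed. CBLL1, the HAKAI subunit of the writer complex, scored 32.5 to 83.4 in Fs and 72.7 to 129.7 in Fts. METTL16, a methyltransferase, scored 14.7 to 47.8 in Fs and 3.57 to 76.8 in Fts. YTHDC1, the nuclear reader, scored 46.9 to 72.1 in Fs and 21.0 to 59.2 in Fts. HNRNPC, which binds RNA opened by m6A, scored 3.64 to 24.9 in Fs and 17.0 to 175 in Fts. The groups of all 4 overlapped.

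Chromatin regulators had 12 genes among 84, BAZ2A, BAZ2B, CHD1, CHD8, KDM2A, KMT2E, MGA, NSD3, PHF20, PHF3, SMARCA2 and SRCAP. PHF3 (above) and SRCAP, the ATPase that exchanges histone H2A.Z, were called higher, and the median log2 difference of the 12 was 0.32, against -0.31 over the shared regions and -0.12 over all regions fitted. SRCAP scored 26.9, 10.01 and 5.60 in Fs and 102, 195 and 148 in Fts on its last exon. The highest scores of this list were in NSD3, a histone methyltransferase, with 463, 825 and 613 in Fs and 488, 6.97 and 764 in Fts, where replicate 2 of Fts was low. CHD8, a chromatin remodeller, scored 112 to 161 in Fs and 57.2 to 125 in Fts. BAZ2B, a bromodomain protein, scored 40.6 to 116 in Fs and 30.9 to 139.6 in Fts. PHF20, a PHD finger protein, scored 28.5 to 59.8 in Fs and 60.2 to 101 in Fts, and of these 3 only PHF20 had groups apart.

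The ubiquitin list had 8 genes among 62, CUL7, CUL9, MYCBP2, RNF19A, UBR3, USP24, USP32 and USP8, with a median log2 difference of -1.02. By the mean, 7 of the 8 were lower in Fts, 6 after centring, and USP8 alone passed. Over all shared regions, 596 of 1042 were lower by the mean, with a median of -0.31. USP8, a deubiquitinase of endosomes, scored 68.6, 78.0 and 91.3 in Fs and 11.9, 9.54 and 10 in Fts. USP32 scored 1091, 713 and 832 in Fs and 155, 180.1 and 360.1 in Fts, without overlap, but did not pass (limma adjusted p = 0.13, and 0.046 to 0.39 over all alternatives). The E3 ligase UBR3 scored 263 to 485 in Fs and 199.9 to 338 in Fts. The protease USP24 scored 147 to 379 in Fs and 57.0 to 174 in Fts. The cullin CUL9 scored 26.3 to 89.0 in Fs and 20.3 to 104 in Fts, and all 3 overlapped.

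Signalling by cAMP, calcium and kinases had 8 genes among 67, AKAP9, ITPR1, ITPR2, PIK3R1, PRKAA2, PRKAR1A, SIK3 and TAOK2, and none passed. SIK3, a salt-inducible kinase, came nearest with 542, 453 and 403 in Fs and 57.4, 71.2 and 92.9 in Fts (log2 difference -2.68 ± 0.73 SE, limma adjusted p = 0.065), and it passed without the block (limma adjusted p = 0.038, and 0.025 to 0.15 over all alternatives). PRKAR1A, a regulatory subunit of protein kinase A, scored 63.6 to 154 in Fs and 7.59 to 90.7 in Fts. ITPR2, a calcium channel of internal stores, scored 44.7 to 89.2 in Fs and 91.9 to 176 in Fts. PIK3R1, a subunit of PI3 kinase, scored 10.4 to 60.5 in Fs and 12.8 to 209 in Fts. The groups overlapped for PRKAR1A and PIK3R1 but not for ITPR2. RNA-binding and piRNA genes were AGO1, RBM5 and SRRM2, 3 of 71, and SRRM2 was called higher (above). RBM5, a splicing factor needed by spermatids, scored 15.0 to 32.7 in Fs and 61.4 to 76.8 in Fts. AGO1, an Argonaute that binds microRNAs, scored 7.81 to 39.3 in Fs and 8.61 to 29.3 in Fts, with overlap. PKM, pyruvate kinase, was the sole gene of glycolysis and the citrate cycle among 40 and scored 173 to 258 in Fs and 54.0 to 164 in Fts. DNAJA1, a heat shock protein 40, was the sole chaperone among 35 and scored 19.0 to 29.7 in Fs and 35.4 to 70.9 in Fts. In RBM5, PKM and DNAJA1 the groups did not overlap, yet none of them passed.

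**Figure D4:**
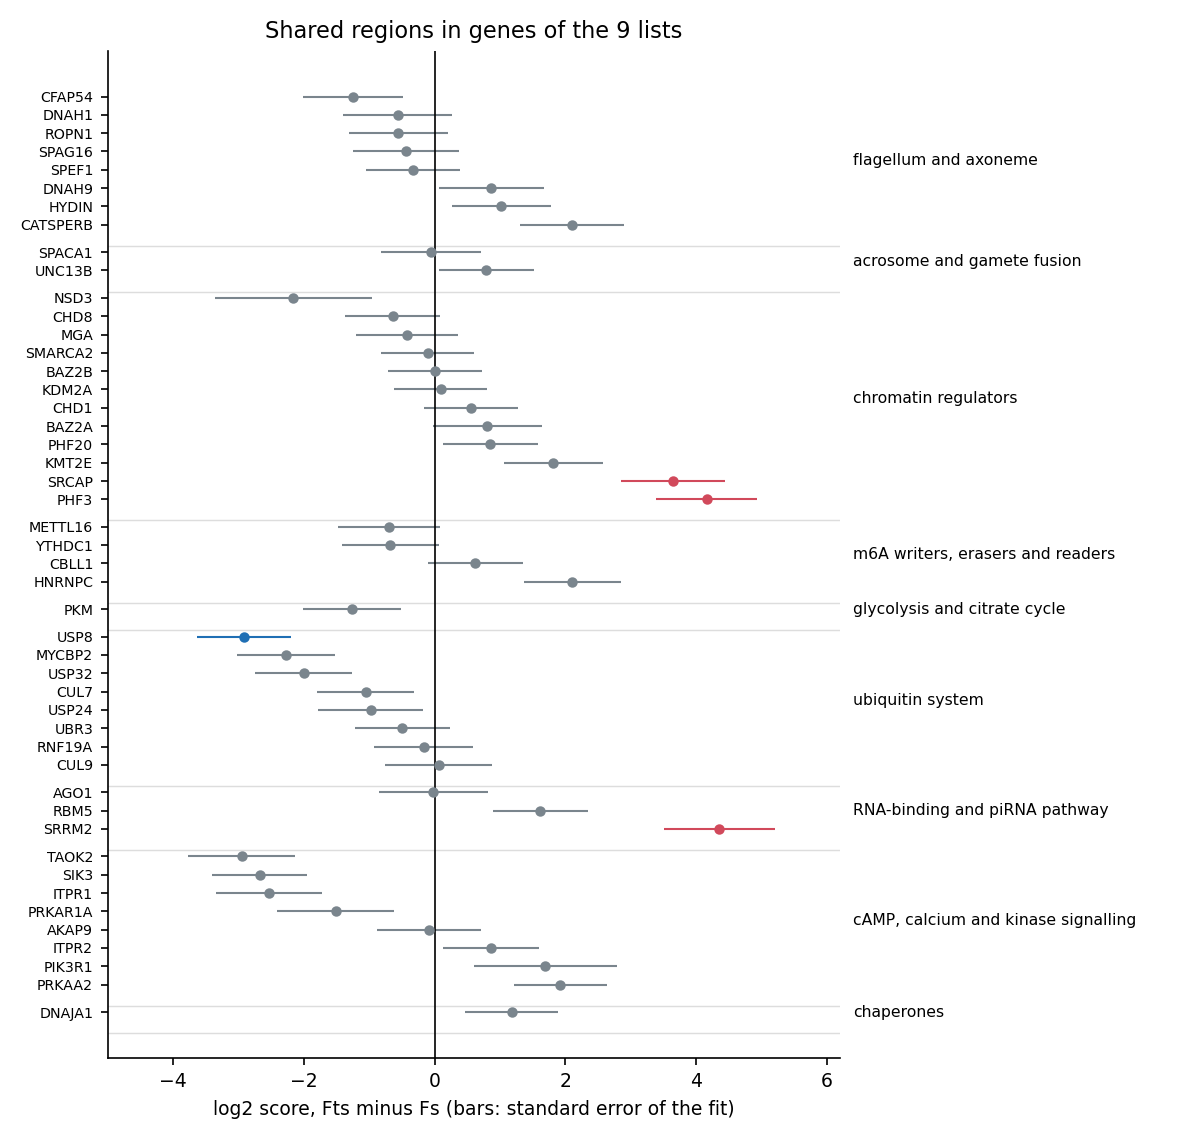
Log2 score difference, Fts minus Fs (x axis, limma estimate with bars of 1 standard error), for each of the 47 shared regions in genes of 9 lists. Red marks SRCAP, PHF3 and SRRM2, called higher, blue marks USP8, called lower, and grey the regions that did not pass.

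The label of the cells was checked against marker genes, with the limit that a peak list is not a measure of expression. Of 18 markers of sperm and spermatids, such as PRM1, TNP1 and AKAP4, 9 had a peak in some sample and none had a shared region. Markers of leukocytes (3 of 6), epithelium (4 of 5), Sertoli cells (3 of 5) and Leydig cells (4 of 5) had peaks in some sample as well, and no shared region. Of all genes with any region only 7.02% had a shared region, so lists this short could not decide the cell type. The study's methods include a detergent treatment of the sperm pellet to remove somatic cells. The part of other cells in the shared regions was not tested.

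Shared regions were spread over whole transcripts. Of the 740 placed by their midpoint on the longest coding transcript, 513 were in the CDS, 68 in the 5'UTR, 68 within 100 nt of the start codon, 18 within 100 nt of the stop codon and 73 in the 3'UTR. Within each sample, the peaks of these regions were set against its other peaks. The share in the 5'UTR was 8.73% ± 0.45 of placed peaks against 4.77% ± 0.82 (mean ± SD, n = 6 samples), higher in 6 of 6 samples. The share in the CDS was 69.1% ± 0.43 against 74.9% ± 2.55, lower in 6 of 6, with differences of 3.97 and -5.82 percentage points. The share in the 3'UTR was 9.64% ± 0.34 against 7.75% ± 1.06, higher in 6 of 6 samples, and that at the stop codon was 2.68% ± 0.26 against 3.98% ± 0.08, lower in 6 of 6. At the start codon it was 9.82% ± 0.22 against 8.56% ± 0.89, higher in 5 of 6. Each of the first 4 classes gave p = 0.031 in an exact two-sided sign-flip test, the smallest that 6 samples allow, and 0.056 after adjustment over 9 measures, so none passed. In the same exact test the start codon gave p = 0.0625. The regions are the same in all 6 samples, which therefore are not independent of each other here. The SD of the shared peaks measures no replication for the same reason. Shared peaks were also longer (below), and the part of length in these shares was not tested. The other peaks had means of 5.49% in Fs and 4.05% in Fts in the 5'UTR, and of 72.7% and 77.2% in the CDS. The shared peaks differed by 0.54 points between the groups in the 5'UTR and by -0.08 in the CDS. Such closeness follows from the rule, which counts the same regions in both groups, and is not a result. With a minimum score of 20, the stop codon difference was -0.31 points (exact p = 0.19).

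**Figure D5:**
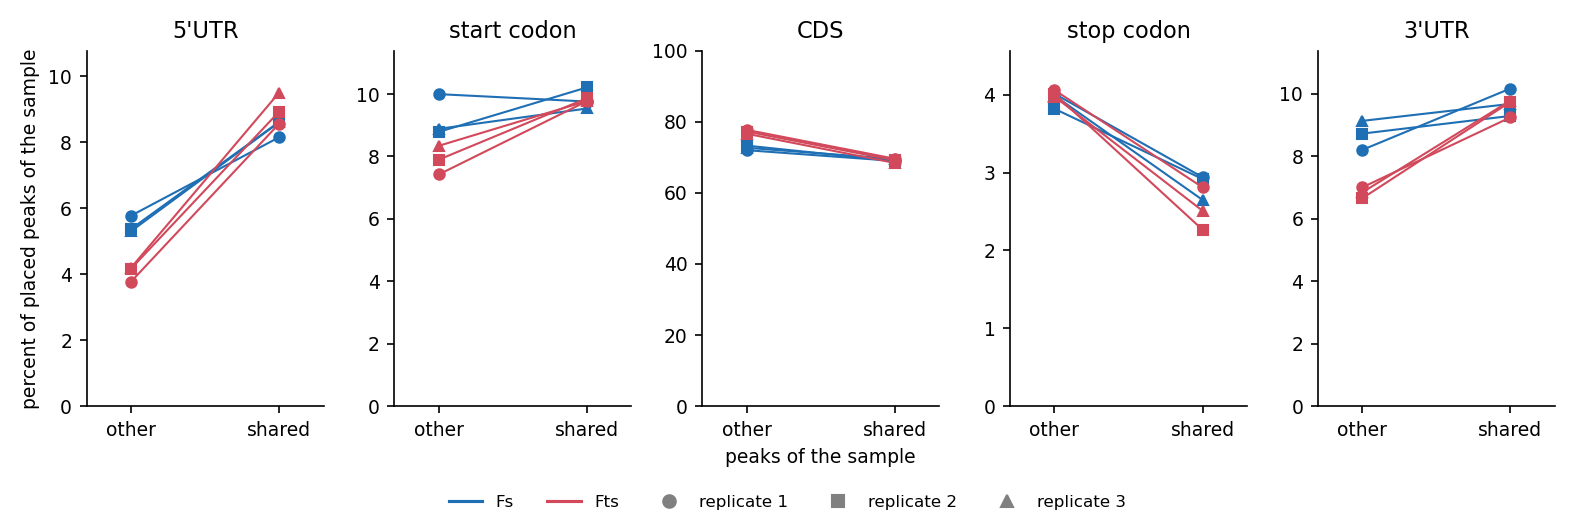
Percent of placed peaks (y axis, a scale for each panel) in 5 transcript classes, for the peaks outside (other) and inside (shared) the shared regions of the same sample, joined by a line, blue for Fs and red for Fts. The shared peaks lie close together in each class because the rule makes their regions the same in all samples. They lie above the other peaks in the 5'UTR and 3'UTR and below them in the CDS and at the stop codon.

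Base composition did not pass either. Shared peaks held 52.8% ± 0.06 G and C against 51.7% ± 0.89, higher in 5 of 6 samples, and 1.29 ± 0.01 RRACH per 100 bases against 1.38 ± 0.08, lower in 5 of 6 (both p = 0.0625, exact sign-flip test, adjusted p = 0.070). GGACT stood at 0.0967 ± 0.0015 against 0.0957 ± 0.0030 per 100 bases, higher in 4 of 6 samples (exact p = 0.41). Peaks in shared regions had a median length of 239.5 bp ± 5.0 against 165.5 bp ± 8.02. The rule asks for overlap, which length enters, so that length is a description, although it counts among the 9 measures of the adjustment.

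Peak bounds often followed exons, in lists for which the authors had kept only the parts of peaks on mRNAs. The part of that step in the bounds was not tested. In 382 shared regions the bounds were identical in all 6 samples, in 224 they were those of an annotated exon in every sample, and 1036 had at least 1 base common to all samples. Between 28.8% and 30.0% of the shared peaks of a sample equalled an exon, in regions that the rule makes the same for all samples. Of the other peaks, which differ from sample to sample, 33.7% to 34.8% did in Fs and 46.0% to 50.4% in Fts.

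Off the RefSeq mRNA exons of their strand lay 178 shared regions (17.1%). Counted by peaks, it was 18.1% to 18.6% of the shared peaks of a sample, against 9.09% to 15.3% of its other peaks. The authors' lists hold parts of peaks on mRNAs, and their annotation was not compared with RefSeq. Of the 178, 71 were inside a RefSeq gene of the same strand, 65 outside RefSeq genes and 17 on an mRNA exon of the other strand. A further 17 were inside a gene of the other strand and 8 on an exon of a non-coding transcript. The 65 outside RefSeq genes had a median distance of 1179 bp to the nearest gene, and 29 of them lay within 1000 bp. Calls in this group were 1 higher and 5 lower, or 6 of 178, beside 56 of all 1042 shared regions and 3.55% of all regions fitted. A further copy in the genome, at 95% identity or more over at least 90% of the length, was found for 86 of the 1042 shared regions, whose reads may come from either place.

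The rule turned on single weak or missing peaks. Just inside it, the weakest scores were 3.02 in replicate 2 of Fs for UBAP1 (3.02 to 61.9 in Fs and 4.01 to 9.54 in Fts), 3.02 in replicate 1 of Fs for SARS (3.02 to 24.1 in Fs and 8.03 to 62.1 in Fts) and 3.03 in replicate 2 of Fts for PZP (18.4 to 28.4 in Fs and 3.03 to 11.9 in Fts). Just outside it, STRBP exon 1 scored 3100 in 5 samples and had no peak in replicate 3 of Fts. F5 exon 13 scored 2884 to 3100 and MUC2 exon 33 1528 to 3100, and both lacked a peak in replicate 2 of Fts. Of the 1307 regions with a peak in 5 samples, the missing sample was an Fs sample in 511 and an Fts sample in 796.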

How the data were processed

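Peak lists of 6 m6A IP samples, 3 Fs and 3 Fts, were analysed, and the 6 input libraries entered only through the peak calls. The authors trimmed reads with cutadapt 1.9.3, aligned them with HISAT2 to Sscrofa11.1 (susScr11), called peaks in each sample with MACS against its own input, and kept the parts of peaks on mRNAs. The deposited score has no header. From its range and the MACS peak calls it was read as 10 times -log10 p of a peak, not normalized between samples. It has a floor near 3 and a usual ceiling of 3100, and many weak peaks were kept. The lists hold no read counts, so no depth entered the analysis and no counting interval can be given, although a deeper library reaches higher scores from the same enrichment. The authors' list of sites that differ between the groups holds their own comparison, and its 1 score column was not used.

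Intervals were merged at an overlap of at least 1 bp with strand ignored, and each sample's highest peak in a region gave its score. Scores were compared on the log2 scale with limma (version 3.58.1, R 4.3.3) over the 2957 regions with at least 2 peaks in each group, with the replicate number as a block and Benjamini-Hochberg adjustment over all 2957 at a threshold of 0.05. A region without a peak in a sample entered the fit without that sample, and shared regions had all 6. Median differences and within-sample shares were compared with exact two-sided sign-flip tests. On simulated scores of 2957 regions, 50 changes of each size and direction were planted, only in regions with all 6 peaks. Log2 changes of 4 were recovered in 92% of cases upward and 100% downward, and changes of 2 in 28% and 36%. Among the regions without a planted change there were 8 false calls. The simulated scores had no floor, ceiling or replicate effect, so recovery in the data may differ.

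Peaks were placed on the RefSeq annotation and genome of Sscrofa11.1, whose chromosome names matched all those of the files. Transcript classes used the longest coding transcript, with 100 nt on each side of the start and stop codons. Further genomic copies were sought with BLAST+ 2.17.0. Scripts used Python 3.11.15, pandas 2.3.3, SciPy 1.17.1 and pysam 0.24.0. The shared regions and gene lists were chosen with earlier results of these data known. Named regions were the 10 of highest mean score, the 10 called with the largest difference in each direction, genes with the most shared regions, up to 4 of each gene list by mean score, and 3 on either side of the rule. Of these, 1 region higher in Fts is not reported here. Alternatives covered the block, centring, ranks, the regions fitted, the score minimum, the mean of peaks, the trend of the spread, the codon windows and leaving out each replicate.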

Additional observations from a re-analysis of the deposited data

How the results depend on the processing

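The number of shared regions was 369 with peaks of at least 20 in score, 169 at 50, and 1473 to 1622 when a replicate of both groups was left out. Samples of the same number did not deviate together (r = 0.012, 0.0078 and 0.0061 over regions, against -0.032 to 0.024 for other numbers), so nothing in the scores showed that equal numbers belong together. The block was kept because the study states a paired design, and without the replicate block 29 shared regions were called higher and 45 lower. The 26 higher and 30 lower calls became 13 to 16 and 4 to 21 without a replicate, 52 and 78 without regions at the ceiling, 20 and 18 without regions off mRNA exons, 4 and 1 with shared regions alone in the fit, 43 and 69 with shared regions alone and no block, 29 and 12 after centring, and 0 and 0 on ranks. Ranks were fitted on the shared regions alone. Setting aside regions at the ceiling, setting aside those off exons, and combining shared regions alone with no block were chosen after seeing the data. Of the 20 regions named for a called difference, 15 did not pass with shared regions alone in the fit. The median difference stayed negative, from -0.14 to -0.34, in every alternative run. The stop codon difference was -0.31 points at a score of 20 (exact p = 0.19), the start codon difference 3.61 points with windows of 200 nt (exact p = 0.031), and RRACH -0.14 per 100 bases within 100 nt of the midpoint (exact p = 0.031). GGACT changed sign, at -0.00083 per 100 bases within 100 nt of the midpoint, -0.00031 to 0.0024 without a replicate, and 0.0023 against regions of 2 to 5 samples (exact p = 0.031). Without a replicate, differences were 3.80 to 4.16 points in the 5'UTR, -5.95 to -5.64 in the CDS, -1.36 to -1.24 at the stop codon, 1.78 to 1.96 in the 3'UTR and 72.8 to 75.4 bp in length, where 4 samples cannot give an exact p under 0.125. The cause of these changes was not tested. The 571 shared regions with a sample under 13.01 rest there on weak peaks.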

Other observations

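The 27 shared regions longer than 2000 bp had higher scores in Fts in all 3 replicates, with median log2 differences of 0.55, 0.91 and 1.03, whereas the median over all shared regions was negative in each. Of the 27, 4 were called higher and 0 lower (limma), where 2.50% of all shared regions were called higher and 2.88% lower. The 18 shared regions at a stop codon had medians of 0.59, 0.71 and 0.54, and none of them was called. In the 5'UTR the medians were -0.22, -0.51 and -0.65 over 68 regions. These groups were looked at after the values were seen, and the differences between them were not tested.

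Chromosomes differed in the share of their merged regions that were shared, from 1.73% of 636 on chromosome 10 to 4.50% of 2825 on chromosome 6, and 49 shared regions lay on unplaced scaffolds. Lengths of shared peaks had a median log2 difference of 0 between Fts and Fs in every replicate. In 382 shared regions the bounds were identical in all samples.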
